A study of Mus musculus with 16 samples.

Results

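The forkhead (Fox) transcription factors were followed through endoderm and mesoderm formation from mouse embryonic stem cells (mESCs). A gene was taken as a member when its symbol was Fox followed by a subfamily letter from a to s and a number, and it was read from the probe set of highest mean that carries that symbol alone. This gave 43 members among 19938 genes with such a probe set on the array, and all 43 were among the 18716 genes tested. Foxf1 and Foxn3 had a second probe set.

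Expression was measured on 16 Mouse Gene ST 1.0 arrays of Affymetrix, which stand for 8 groups of 2 biological replicates. Every group carried the same knock-in alleles, TGFP/+; Foxa2tagRFP/+, in a single line. The GFP insertion disrupts 1 copy of T, whose product drives mesoderm formation, and tagRFP is fused to Foxa2 at the other locus, so that no group here is free of reporters. The sample labels name the parental cells E14.1 (129/Ola), whereas the methods name G4. Definitive endoderm (DE) was sorted as Foxa2-positive, T-negative cells with high CD24 (F+CD24high) at days 2 and 4, and its progenitors (DEP) as Foxa2-positive, T-negative cells with low CD24 (F+CD24low) at days 2 and 4. Mesoderm (MES) was sorted as T-positive, Foxa2-negative cells without CD24 (T+CD24neg) at day 4, and mesoderm progenitors (MP) as T-positive, Foxa2-negative cells with low CD24 (T+CD24low) at days 2 and 4. Undifferentiated, unsorted cells (ES, day 0) were maintained on fibroblast feeders. Foxa2-positive cells came from medium with 12 ng/ml activin A, and T-positive cells from that medium with added Bmp4 (7.5 ng/ml) and activin A (3 ng/ml), both on feeders that express Wnt3a. Lineage and medium therefore cannot be told apart, and in DE compared with MES the CD24 gate differs as well.

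Fox proteins bind DNA through a winged-helix domain and share a core recognition sequence. The FOXA proteins open closed chromatin in endoderm and later in liver and lung, FOXF1 acts in extraembryonic and splanchnic mesoderm, and FOXC proteins act in paraxial mesoderm and vessels. FOXH1 carries the Nodal and activin signal to DNA with SMAD proteins, FOXD3 keeps the pluripotent state and later marks neural crest, FOXO proteins are held out of the nucleus by insulin signalling, and FOXM1 drives genes of the G2 and M phases.

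Values are log2 levels after robust multichip average (RMA) normalization, and a difference of 1 is a doubling. The RMA levels of different genes are read by different probes and were not compared with each other. A gene was called when its absolute log2 difference exceeded 1 and its adjusted p in limma was below 0.05, with adjustment over all 32000 probe sets fitted. Some counts at an unadjusted p below 0.05 in limma are given as well. The share of all genes at that p was not computed, so that these counts cannot be set against other genes. The array medians lay between 7.42 and 7.49, and replicates correlated at 0.987 to 0.994 across probe sets. In a sorted population, fewer cells that express a gene and less of its RNA per cell cannot be told apart.

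Across the 8 groups, 24 of 43 Fox genes (55.8%) differed by the F test, against 45.6% of all genes tested. At least 1 of the 13 pairwise comparisons called 16 members (37.2%), against 18.1% of all genes, and 27 were called in none. The range of the group means exceeded 2 log2 units in 8 members (18.6%), against 6.17% of all genes, and stayed under 0.5 in 18 members (41.9%), against 52.1% of all genes. The median range was 0.61 for the Fox genes and 0.48 for all genes. The 16 called members peaked in different groups. Of these, 4 were highest in DE at day 4, 4 in MES at day 4, 3 in DEP at day 2, 2 in DEP at day 4, 1 in MP at day 4 and 2 in ES. Foxa2, on which the cells were sorted, is counted among the 24, the 16 and the 8, and among the 3 highest in DEP at day 2.

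**Figure D1:**
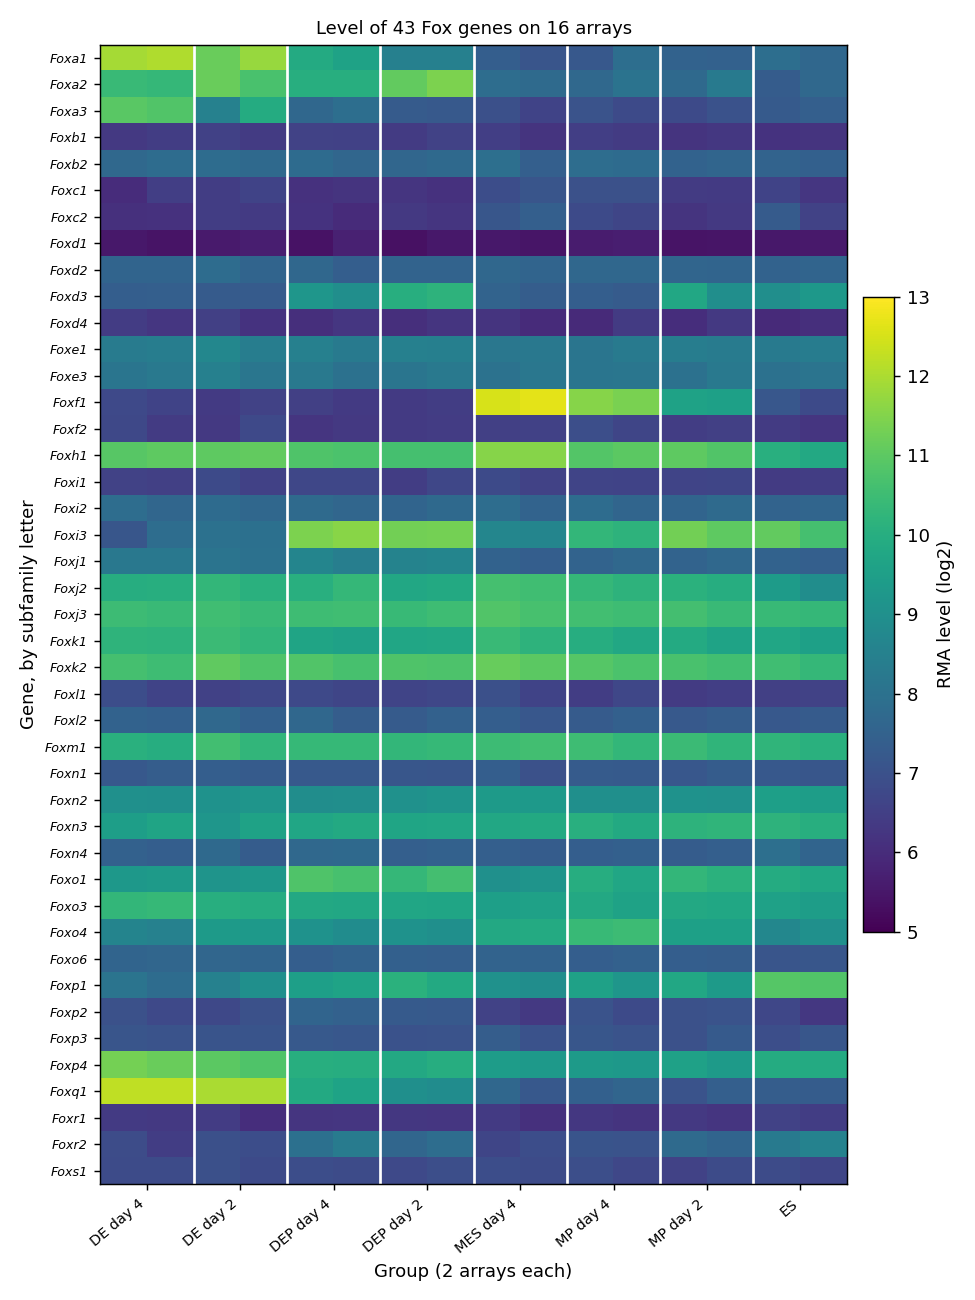
Colour gives the RMA level (log2) of each of the 43 Fox genes (rows, by subfamily letter) on each of the 16 arrays (columns, 2 for each group). Foxa1, Foxa3 and Foxq1 are brightest on the DE arrays, Foxf1 on the MES and MP arrays, and Foxi3 on the CD24-low and ES arrays, while most rows keep 1 colour throughout.

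The promoters of 4 members are shown, 2 that were higher in DE than in DEP (Foxa1 and Foxa3) and 2 that were lower (Foxd3 and Foxi3). They were chosen among the members with a promoter entry, which Foxq1 and Foxf1 did not have in the table used. Promoter sequences of RefSeq (GRCm38.p6), 250 bases before to 50 bases after the start, were given for 28 of the 43 members in 33 entries. Capitals mark the letters of 5 motifs searched on both strands, which were a forkhead core (TGTTTAC or TATTTAC), an octamer (ATGCAAAT), a GATA core (AGATAA), the CCAAT box (CCAAT) and an E-box (CACCTG).
Foxa1, chr12:57546062-57546361, minus strand: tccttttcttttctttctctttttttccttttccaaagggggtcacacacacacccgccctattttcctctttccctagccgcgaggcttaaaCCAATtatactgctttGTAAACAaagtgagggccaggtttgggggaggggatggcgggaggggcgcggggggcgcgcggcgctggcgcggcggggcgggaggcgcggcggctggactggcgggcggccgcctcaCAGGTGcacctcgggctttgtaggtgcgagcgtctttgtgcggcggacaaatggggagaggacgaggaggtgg
Foxa3, chr7:19023490-19023789, minus strand: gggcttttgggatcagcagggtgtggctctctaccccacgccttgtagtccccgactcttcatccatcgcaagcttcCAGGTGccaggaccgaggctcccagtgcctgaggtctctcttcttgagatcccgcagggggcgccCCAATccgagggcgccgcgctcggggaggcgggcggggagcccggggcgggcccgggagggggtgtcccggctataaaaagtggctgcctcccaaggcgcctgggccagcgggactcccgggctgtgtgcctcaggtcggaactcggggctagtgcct
Foxd3, chr4:99656049-99656348, plus strand: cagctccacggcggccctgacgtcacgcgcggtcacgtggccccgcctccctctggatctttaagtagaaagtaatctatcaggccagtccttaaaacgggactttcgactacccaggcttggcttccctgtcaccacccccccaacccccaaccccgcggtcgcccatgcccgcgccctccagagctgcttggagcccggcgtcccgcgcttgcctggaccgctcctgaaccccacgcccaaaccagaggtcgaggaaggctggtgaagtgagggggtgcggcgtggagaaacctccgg
Foxi3, chr6:70956356-70956655, plus strand: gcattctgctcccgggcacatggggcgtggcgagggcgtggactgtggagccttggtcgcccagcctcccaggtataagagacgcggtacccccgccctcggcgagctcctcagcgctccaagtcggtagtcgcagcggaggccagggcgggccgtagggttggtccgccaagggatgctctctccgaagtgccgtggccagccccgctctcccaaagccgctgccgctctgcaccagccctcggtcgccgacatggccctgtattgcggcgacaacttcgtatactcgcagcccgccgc
The Foxa1 window held a forkhead core that begins 141 bases before the start, a CCAAT box at 157 bases and an E-box at 23 bases. It was the only 1 of the 33 Fox entries (3.03%) with the forkhead core, which 6.54% of all 32851 promoter entries held. The Foxa3 window held a CCAAT box 108 bases and an E-box 173 bases before the start. CCAAT boxes stood in 15 of the 33 Fox entries (45.5%), against 37.4% of all entries, and the E-box in 9 (27.3%), against 20.2%. The Foxd3 and Foxi3 windows held none of the 5 motifs. Other members called lower in DE than in DEP did hold some, with 3 CCAAT boxes for Foxo1 and an E-box for Foxr2. Among the Foxp1 entries, that at chr6:99028249-99028548 held a CCAAT box and an E-box, and the others held none. No Fox entry held the octamer, which was found in 1.74% of all entries. The GATA core stood in 2 Fox entries (6.06%), against 11.2% of all entries. All 4 windows were rich in G and C, at 62.3% for Foxa1, 69.0% for Foxa3, 65.7% for Foxd3 and 69.0% for Foxi3. These matches describe letters and were not tested as binding sites.

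Foxa2, on which the cells were sorted, followed the gates on every array. Its level was 10.41 and 10.33 in DE at day 4, 11.17 and 10.70 in DE at day 2, 10.02 and 10.00 in DEP at day 4 and 11.09 and 11.41 in DEP at day 2. The T-positive arrays lay between 7.71 and 8.26, and ES had 7.32 and 7.71. All 8 Foxa2-positive arrays were thus above all 8 others, which checks the sort and is no finding, and Foxa2 is counted below only where this is said. Between the CD24 gates, Foxa2 differed by 0.36 at day 4 (95% interval -0.10 to 0.82) and by -0.31 at day 2 (95% interval -0.77 to 0.14) in DE minus DEP. Of 8 markers of definitive endoderm, Foxa2 among them, 8 were called higher in DE at day 4 than in MES (100%, against 4.26% of all genes). Of 8 mesoderm markers, 7 were called lower (87.5%, against 3.61%). The remaining mesoderm marker, Gata4, had a mean of 12.05 in DE at day 4 and 11.22 in MES and was not called. Gata4 and Pdgfra were called higher in DE than in DEP at both days (25%, against 1.78% at day 2 and 3.03% at day 4). The mean level of 10 visceral or parietal endoderm markers was 8.86 to 8.92 on the DE day 4 arrays and no higher than 8.18 on any other array. Of these markers Apoa1, Apob and Rbp4 were called higher in DE at day 4 than in MES (30%, against 4.26% of all genes). Their part in the results on Foxa1, Foxa3 and the other genes high in DE was not tested.

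The comparison of DE at day 4 with MES at day 4 asks which Fox genes separate the 2 end populations. Foxa1, Foxa3, Foxq1 and Foxp4 were higher in DE, by 1.88 to 4.81 log2 units, and Foxf1, Foxo4, Foxc2, Foxi3 and Foxp1 were lower, with differences of -5.91 to -1.03. With Foxa2, 5 of 43 members (11.6%) were called higher, against a background of 4.26% of all genes, and 5 (11.6%) were called lower, against 3.61%. The median difference was -0.01 over the 43 members and 0.02 over all genes.

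**Figure D2:**
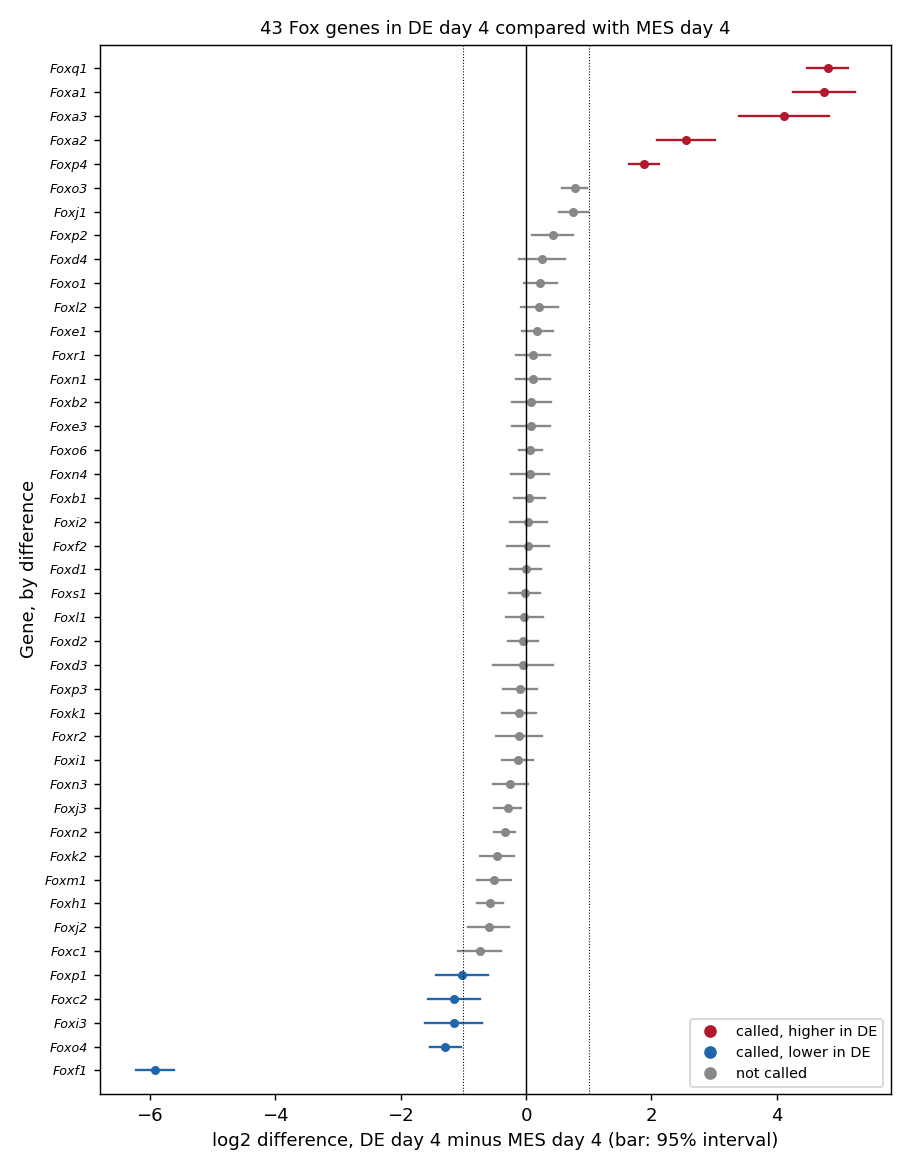
Points give the log2 difference of each Fox gene in DE at day 4 minus MES at day 4, bars the 95% interval of the fit, and dotted lines the threshold of 1. Foxq1 (4.81) and Foxa1 (4.75) lie farthest to the right and Foxf1 (-5.91) farthest to the left, and 33 members in grey were not called.

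Foxa1, a pioneer factor of endoderm, had 11.92 and 12.06 in DE at day 4, 11.18 and 11.76 in DE at day 2, 9.90 and 9.61 in DEP at day 4 and 8.49 and 8.47 in DEP at day 2. It had 7.38 and 7.10 in MES, 7.20 and 7.89 in MP at day 4, 7.51 and 7.48 in MP at day 2 and 7.88 and 7.66 in ES. The Foxa2-positive groups did not overlap with one another or with the other arrays, so that Foxa1 formed 4 steps above a common low level. DE exceeded DEP by 2.99 ± 0.22 (SE, n = 2 each) at day 2 (adjusted p = 6.79e-06) and by 2.23 ± 0.22 at day 4 (adjusted p = 2.97e-05). DE at day 4 exceeded MES by 4.75 ± 0.22, a 26.9-fold difference (adjusted p = 5.07e-08). DEP exceeded MP by 2.21 at day 4 (adjusted p = 5.18e-05) and by 0.98 at day 2 (adjusted p = 0.0446), which fell short of the threshold on size. Within DEP, Foxa1 was higher at day 4 than at day 2 by 1.28 (adjusted p = 0.029), a call that was lost without any of the 4 arrays concerned, with differences of 1.13 to 1.43. Between DE at day 4 and at day 2 the difference was 0.52 (95% interval 0.03 to 1.01, adjusted p = 0.22).

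Foxa3, the third member of the subfamily and a factor of gut and liver, was high in DE alone among the groups. Its level was 10.96 and 10.83 in DE at day 4 and 8.51 and 9.93 in DE at day 2. It was 7.67 and 7.90 in DEP at day 4, 7.30 and 7.23 in DEP at day 2, 6.62 to 7.06 on the 6 T-positive arrays and 7.28 and 7.41 in ES. The 2 DE arrays of day 2 differed by more than those of any other group for this gene, yet both lay above every array outside DE. DE exceeded DEP by 3.11 ± 0.33 at day 4 (adjusted p = 4.23e-05) and by 1.95 ± 0.33 at day 2 (adjusted p = 0.00252), which fell to 1.24 without DE day 2 replicate 2 and remained called. DE at day 4 exceeded MES by 4.11 ± 0.33 (adjusted p = 3.08e-06). Foxa3 was called higher in DE at day 4 than at day 2, by 1.68 (adjusted p = 0.0108), but the call was lost without DE day 2 replicate 1, when the difference was 0.97, and without DE day 4 replicate 1 (1.61) or DE day 4 replicate 2 (1.74). In DEP minus MP the difference was 0.86 at day 4 (95% interval 0.14 to 1.58, adjusted p = 0.161).

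Foxq1, which in mouse controls hair shaft differentiation and is found in epithelia, rose as early as Foxa2-positive cells were sampled. It had 12.24 and 12.24 in DE at day 4, 11.99 and 11.99 in DE at day 2, 9.86 and 9.65 in DEP at day 4 and 8.99 and 8.89 in DEP at day 2. It had 7.05 to 7.66 on the 6 T-positive arrays and 7.36 and 7.32 in ES. DEP at day 2 was already above ES by 1.60 ± 0.15 (adjusted p = 2.63e-05) and above MP at day 2 by 1.70 ± 0.15 (adjusted p = 1.03e-04). DEP at day 4 exceeded MP by 2.23 (adjusted p = 2.11e-06). DE exceeded DEP by 3.05 at day 2 (adjusted p = 2.93e-07) and by 2.49 at day 4 (adjusted p = 6.98e-07), and DE at day 4 exceeded MES by 4.81 ± 0.15, a 28.0-fold difference (adjusted p = 3.16e-09). At day 2 Foxq1 was therefore the only member besides Foxa2 that was called higher in DEP than in MP.

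Foxp4, a repressor found in foregut and lung epithelium, and Foxj1, the regulator of motile cilia, were also higher in Foxa2-positive cells. Foxp4 had 11.34 and 11.16 in DE at day 4, 10.99 and 10.80 in DE at day 2, 9.84 to 10.03 on the 4 DEP arrays, 9.26 to 9.59 on the 6 T-positive arrays and 9.93 and 9.88 in ES. Its DEP arrays lay around the level of ES, with the DE arrays above and the T-positive arrays below. Relative to MES, DE at day 4 was higher by 1.88 ± 0.11 (adjusted p = 2.57e-07), and relative to DEP by 1.24 ± 0.11 (adjusted p = 1.15e-05). At day 2 the difference from DEP was 0.98 (adjusted p = 1.36e-04), just under the threshold on size.

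Foxj1 was highest in the CD24-low cells of the Foxa2-positive arm. It had 8.21 and 8.20 in DE at day 4, 8.09 and 7.99 in DE at day 2, 8.64 and 8.42 in DEP at day 4 and 8.56 and 8.63 in DEP at day 2. The T-positive arrays had 7.38 to 7.71 and ES 7.51 and 7.44. DEP at day 2 exceeded ES by 1.13 ± 0.10 (adjusted p = 2.06e-05), the only comparison in which Foxj1 was called. It exceeded MP by 0.97 at day 2 (adjusted p = 3.83e-04) and by 0.90 at day 4 (adjusted p = 1.26e-04), and DE minus DEP was -0.56 at day 2 (adjusted p = 0.00459), all short of the threshold on size. Of 6 axial mesendoderm markers, 3 were called higher in DEP at day 2 than in ES (50%, against 1.45% of all genes). These were Foxj1 itself, Chrd and Krt19, whereas Noto, Shh and Nog were not called. Chrd was called lower in DE than in DEP at both days and higher in DEP than in MP at both days. Krt19 went the other way, called higher in DE than in DEP at both days and lower in DEP than in MP at day 4.

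**Figure D3:**
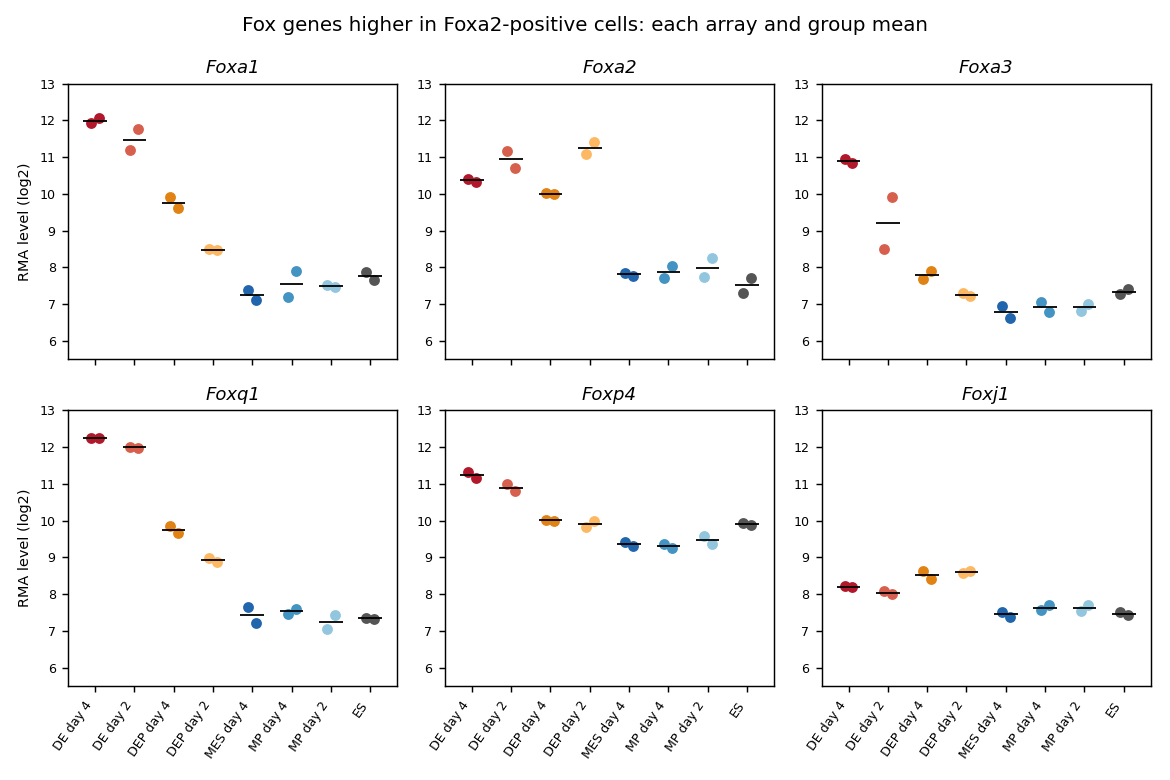
Points give the RMA level (log2) on each array and lines the mean of the 2 arrays of a group, for 6 Fox genes that were higher in Foxa2-positive cells. Foxa1 and Foxq1 step up from DEP to DE, Foxa3 is high in DE only, Foxp4 lies lowest in T-positive cells, and Foxj1 is highest in DEP.

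Foxf1 had the largest difference of any member. The 8 Foxa2-positive arrays had 6.35 to 6.76, whereas the level was 12.53 and 12.68 in MES, 11.55 and 11.38 in MP at day 4 and 9.61 and 9.56 in MP at day 2, and ES had 7.18 and 6.79. The 3 T-positive groups were separate from each other and from all remaining arrays. The difference of DE at day 4 from MES was -5.91 ± 0.14, a 60.3-fold difference (adjusted p = 9.23e-10). DEP minus MP was -5.02 at day 4 (adjusted p = 3.56e-09) and -3.19 at day 2 (adjusted p = 7.12e-07), and the change of this difference with the day was called (-1.83 ± 0.19, adjusted p = 5.46e-04). Foxf1 was the only 1 of 43 members with a called change of DEP minus MP with the day, against 1.57% of all genes. Within the T-positive arm it was higher in MP at day 4 than at day 2 by 1.88 (adjusted p = 1.35e-05), and higher in MES than in MP at day 4 by 1.14 (adjusted p = 6.39e-04). The second probe set of Foxf1 gave group means of 7.09 to 7.30 in the Foxa2-positive groups, 11.51 in MES, 10.23 in MP at day 4, 8.44 in MP at day 2 and 7.40 in ES. Pdgfrb, on the fibroblast list, was also called lower in DE at day 4 than in MES. It was the only 1 of the 12 fibroblast genes tested that was called there (8.33%, against 3.61% of all genes called lower).

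Foxc2 and Foxo4 were lower in DE at day 4 than in MES by smaller amounts. Foxc2 had 6.10 and 6.15 in DE at day 4, 5.999 to 6.46 on the other 6 Foxa2-positive arrays, 7.13 and 7.41 in MES, 6.80 and 6.67 in MP at day 4 and 6.20 and 6.32 in MP at day 2. The 2 ES arrays had 7.29 and 6.57 and overlapped with MES. The difference between DE at day 4 and MES was -1.15 ± 0.19 (adjusted p = 8.69e-04). Foxc1, the related gene, had 6.001 and 6.50 in DE at day 4 and 6.88 and 7.10 in MES, a difference of -0.74 (adjusted p = 0.00517) that was short of the threshold.

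Foxo4 was highest in MP at day 4. It had 8.62 and 8.52 in DE at day 4, 9.37 and 9.33 in DE at day 2 and 8.89 to 9.09 on the 4 DEP arrays. It had 9.82 and 9.90 in MES, 10.40 and 10.49 in MP at day 4, 9.53 and 9.55 in MP at day 2 and 8.69 and 9.03 in ES, so that every T-positive array was above every other array. The difference of DE at day 4 from MES was -1.29 ± 0.11 (adjusted p = 6.77e-06), and DEP minus MP was -1.45 at day 4 (adjusted p = 6.61e-06) and -0.51 at day 2 (adjusted p = 0.041). The change of the DEP minus MP difference with the day was -0.95 (adjusted p = 0.00929), just short of the threshold on size.

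The comparison of DEP with MP concerns the 2 CD24-low populations. At day 2, Foxa2 and Foxq1 were called higher in DEP (2 of 43, 4.65%, against 0.647% of all genes), and Foxf1 was called lower (1 of 43, 2.33%, against 0.54%). At day 4, 6 members were called higher (14%, against 1.77%), which were Foxa1, Foxa2, Foxq1, Foxd3, Foxi3 and Foxr2, and Foxf1 and Foxo4 were called lower (4.65%, against 1.78%). Foxd3, Foxi3 and Foxr2 were thus called at day 4 and not at day 2, but their change with the day was not called (adjusted p = 0.16 for Foxd3, 0.0959 for Foxi3 and 0.063 for Foxr2).

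Foxi3 and Foxd3 were lower in DE than in DEP at both days. Foxi3, a gene of placodes and branchial arches, had 7.13 and 7.86 in DE at day 4 and 7.99 and 7.95 in DE at day 2, against 11.43 and 11.57 in DEP at day 4 and 11.28 and 11.33 in DEP at day 2. It had 8.66 and 8.63 in MES, 10.30 and 10.18 in MP at day 4, 11.30 and 11.01 in MP at day 2 and 11.09 and 10.63 in ES. DE minus DEP was -3.33 ± 0.21 at day 2 (adjusted p = 1.79e-06) and -4.01 ± 0.21 at day 4 (adjusted p = 2.81e-07), and MES minus MP at day 4 was -1.59 ± 0.21 (adjusted p = 0.0011). Foxi3 was thus lower in DE than in DEP and in MES than in MP. CD24 is higher in DE than in DEP and lower in MES than in MP, and the 2 pairs also differ in lineage and medium. The part of the CD24 gate in these differences was not tested. The call in DE at day 4 compared with MES (-1.15, adjusted p = 0.00175) was lost without DE day 4 replicate 1, when the difference was -0.79. Between DEP and MP the difference was 0.15 at day 2 (95% interval -0.30 to 0.61) and 1.26 at day 4 (adjusted p = 0.00194).

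Foxd3 had 7.39 and 7.42 in DE at day 4 and 7.31 and 7.29 in DE at day 2, against 9.21 and 8.95 in DEP at day 4 and 10.03 and 10.17 in DEP at day 2. It had 7.55 and 7.36 in MES, 7.38 and 7.30 in MP at day 4, 9.80 and 8.94 in MP at day 2 and 8.96 and 9.26 in ES. The arrays fell into a low set, made of DE, MES and MP at day 4, and a high set, made of DEP, MP at day 2 and ES. DE minus DEP was -2.80 ± 0.22 at day 2 (adjusted p = 8.52e-06) and -1.67 ± 0.22 at day 4 (adjusted p = 2.07e-04). In MP it was lower at day 4 than at day 2, with a difference of -2.03 ± 0.22 (adjusted p = 1.83e-04), whereas in DEP the difference between these days was -1.02 (adjusted p = 0.078). At day 4 DEP exceeded MP by 1.74 ± 0.22 (adjusted p = 2.60e-04).

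Foxr2 had a smaller range. It had 6.87 and 6.46 in DE at day 4, 6.96 and 6.90 in DE at day 2, 7.95 and 8.34 in DEP at day 4 and 7.65 and 7.86 in DEP at day 2. It had 6.67 and 6.88 in MES, 7.09 and 7.05 in MP at day 4, 7.75 and 7.58 in MP at day 2 and 8.26 and 8.55 in ES. DE minus DEP was -1.484 ± 0.17 at day 4 (adjusted p = 7.26e-05). The difference of DEP from MP at day 4 (1.08, adjusted p = 0.00134) fell under the threshold, to 0.88, without DEP day 4 replicate 2.

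**Figure D4:**
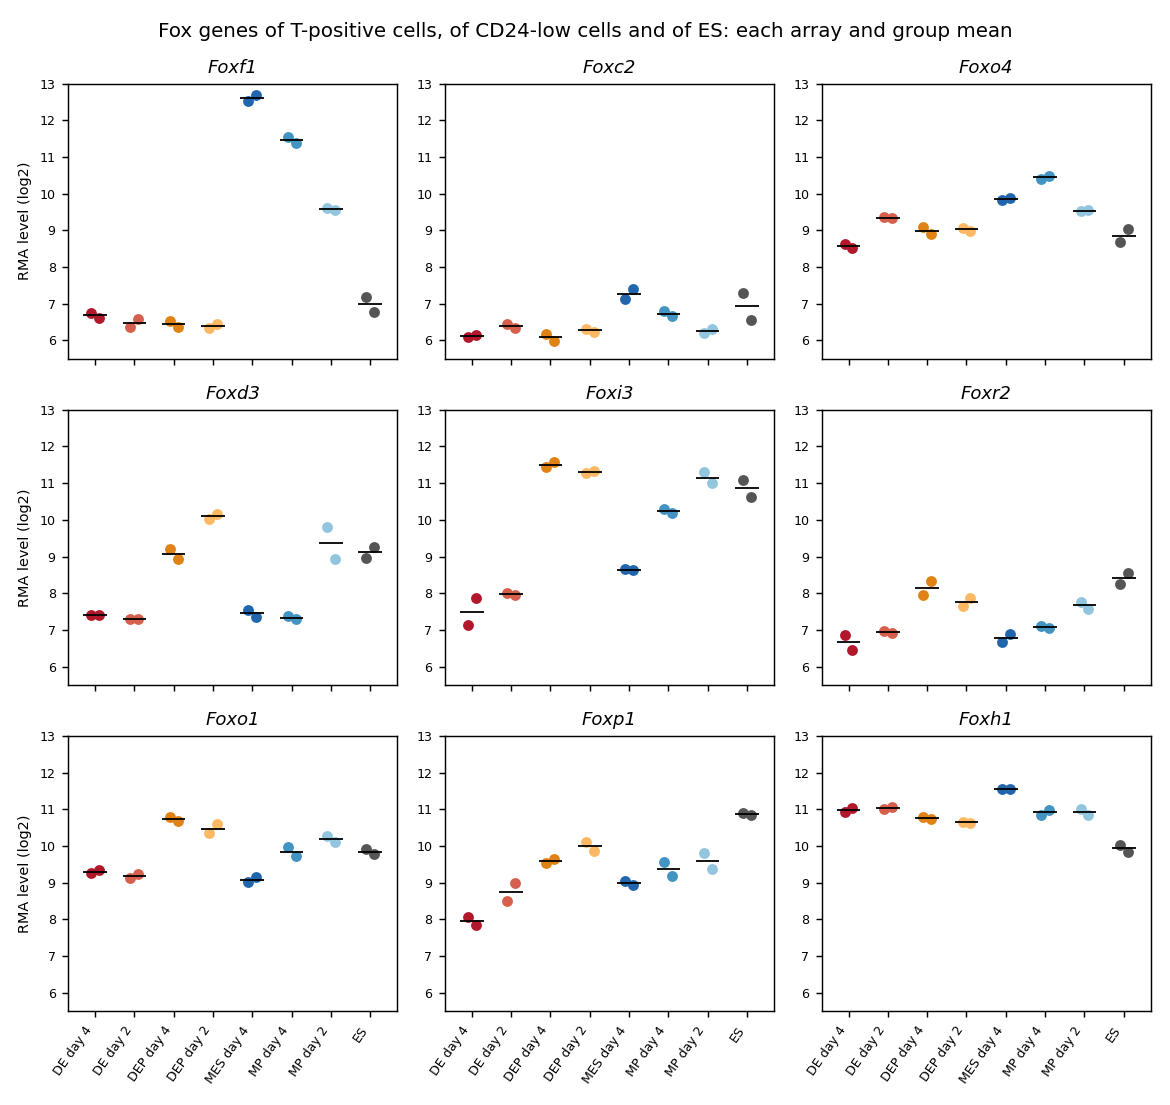
Points give the RMA level (log2) on each array and lines the mean of the 2 arrays of a group, for 9 Fox genes. Foxf1 climbs within T-positive cells to 12.53 and 12.68 in MES, Foxi3, Foxd3 and Foxr2 are lower in DE and MES than in DEP and ES, and Foxp1 is highest in ES at 10.90 and 10.84.

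The comparison of DE with DEP separates the CD24 gates within Foxa2-positive cells grown in the same medium. At day 2, 3 members were called higher in DE (6.98%, against 1.78% of all genes), which were Foxa1, Foxa3 and Foxq1, and 4 were called lower (9.3%, against 1.83%), which were Foxd3, Foxi3, Foxo1 and Foxp1. At day 4, Foxp4 joined the higher members (4, 9.3%, against 3.03%) and Foxr2 the lower members (5, 11.6%, against 3.33%). For the change of DE minus DEP with the day, limma called 0 of 43 members, against 1.05% of all genes. Of the 43, 10 had an unadjusted p below 0.05, for which no share of all genes was computed.

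Foxo1 and Foxp1 were the remaining members that were lower in DE than in DEP at both days. Foxo1, a target of insulin signalling, had 9.26 and 9.35 in DE at day 4 and 9.14 and 9.23 in DE at day 2, against 10.79 and 10.67 in DEP at day 4 and 10.34 and 10.60 in DEP at day 2. It had 9.01 and 9.14 in MES, 9.97 and 9.73 in MP at day 4, 10.29 and 10.10 in MP at day 2 and 9.92 and 9.78 in ES, so that DE and MES held the lowest values. DE minus DEP was -1.42 ± 0.12 at day 4 (adjusted p = 7.98e-06) and -1.29 ± 0.12 at day 2 (adjusted p = 3.44e-05). Foxo3, the related gene, moved the other way without reaching the threshold, with 10.28 and 10.35 in DE at day 4, 9.83 and 9.80 in DEP at day 4, 9.51 and 9.57 in MES and 9.59 and 9.46 in ES. In DE at day 4 it exceeded MES by 0.78 (adjusted p = 7.59e-05) and DEP by 0.50 (adjusted p = 0.00241). The highest group mean was in DEP at day 4 for Foxo1, in MP at day 4 for Foxo4 and in DE at day 4 for Foxo3. Foxo6 had a mean of 7.61 in DE at both days and was called in no comparison.

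Foxp1, a transcriptional repressor, had 8.06 and 7.84 in DE at day 4, 8.51 and 8.99 in DE at day 2, 9.52 and 9.64 in DEP at day 4 and 10.11 and 9.87 in DEP at day 2. It had 9.03 and 8.93 in MES, 9.56 and 9.19 in MP at day 4, 9.81 and 9.36 in MP at day 2 and 10.90 and 10.84 in ES, above every sorted array. DE minus DEP was -1.63 ± 0.19 at day 4 (adjusted p = 8.79e-05) and -1.25 ± 0.19 at day 2 (adjusted p = 0.00127). The difference of DE at day 4 from MES was -1.03 (adjusted p = 0.00205), a call that was lost without DE day 4 replicate 2 (-0.92) and without MES replicate 1 (-0.97).

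The other comparisons within an arm called few members. In MES compared with MP at day 4, Foxf1 was called higher (2.33% of members, against 0.369% of all genes) and Foxi3 lower (2.33%, against 0.807%). In DE at day 4 compared with day 2, Foxa3 alone was called higher (2.33%, against 1.23%), and limma called 0 members lower, against 0.641% of all genes, with 10 of 43 at an unadjusted p below 0.05 in either direction. In DEP at day 4 compared with day 2, Foxa1 was called higher (2.33%, against 0.369%) and the sorting gene Foxa2 lower (2.33%, against 0.0748%). The Foxa2 difference of -1.24 (adjusted p = 0.0228) was, as that of Foxa1, not called without any of the 4 arrays, with values of -1.40 to -1.08. In MP at day 4 compared with day 2, Foxf1 was called higher (2.33%, against 1.22%) and Foxd3 lower (2.33%, against 0.513%).

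Comparisons with ES ask how the family changed from the undifferentiated state, and all of them share the same 2 ES arrays. These arrays also had the highest fibroblast signal. The mean level of 13 fibroblast genes was 7.10 to 7.56 on the 14 sorted arrays and 8.85 to 9.10 in ES. Of the 12 fibroblast genes tested, 6 were called lower in DEP at day 2, 8 in MP at day 2, 7 in DE at day 4 and 5 in MES than in ES. In the same order, these were 50%, 66.7%, 58.3% and 41.7%, against 3.29%, 3.58%, 6.45% and 4.5% of all genes. The part of feeder RNA in the differences of Fox genes between sorted cells and ES, lower or higher, was not tested.

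In DEP at day 2 compared with ES, 3 members were called higher (6.98%, against 1.45% of all genes), which were Foxa2, Foxj1 and Foxq1, and limma called 0 lower, against 3.29% of all genes, with 19 members at an unadjusted p below 0.05 in either direction. In MP at day 2 compared with ES, Foxf1 was called higher, by 2.60 (2.33%, against 1.36%), and Foxp1 lower, with a difference of -1.28 (2.33%, against 3.58%). In DE at day 4 compared with ES, 6 members were called higher (14%, against 4.96%), which were Foxa1, Foxa2, Foxa3, Foxq1, Foxp4 and Foxh1, and 4 were called lower (9.3%, against 6.45%), which were Foxd3, Foxi3, Foxp1 and Foxr2. In MES compared with ES, 3 were called higher (6.98%, against 2.59%), which were Foxf1, Foxh1 and Foxj2, and 4 were called lower (9.3%, against 4.5%), which again were Foxd3, Foxi3, Foxp1 and Foxr2. The difference from ES was -1.70 in DE at day 4 and -1.65 in MES for Foxd3, -3.36 and -2.21 for Foxi3, -2.91 and -1.89 for Foxp1 and -1.74 and -1.63 for Foxr2, in the same order of groups. As these values rest on shared ES arrays, they are not independent of each other.

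Foxh1 and Foxj2 were lowest in ES. Foxh1 had 10.92 and 11.03 in DE at day 4, 10.64 to 11.06 on the other 6 Foxa2-positive arrays, 11.55 and 11.56 in MES, 10.84 to 11.002 on the 4 MP arrays and 10.03 and 9.83 in ES. MES exceeded ES by 1.62 ± 0.10 (adjusted p = 3.69e-07) and DE at day 4 exceeded ES by 1.04 ± 0.10 (adjusted p = 7.07e-06), which was under the threshold on size without ES replicate 2 (0.94) or DE day 4 replicate 2 (0.99). Its difference between DE at day 4 and MES was -0.58 (adjusted p = 0.0010). Foxj2 had 10.64 and 10.55 in MES and 9.39 and 8.93 in ES, a difference of 1.43 ± 0.15 (adjusted p = 3.29e-05), with 9.81 to 10.34 on the 12 arrays of the remaining groups.

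Members called in none of the comparisons included those found in most cells. Foxm1 had 10.08 and 9.98 in DE at day 4, 10.50 and 10.59 in MES and 10.23 and 10.09 in ES, and the difference of DE at day 4 from MES was -0.51 (adjusted p = 0.0109). Foxk1 was higher in DE than in DEP by 0.58 at day 2 (adjusted p = 0.0121) and by 0.54 at day 4 (adjusted p = 0.0106), under the threshold on size. The widest range of group means among the 27 was 1.10, in Foxp2, and the narrowest 0.16, in Foxd2. Their group means ran from 5.44 to 11.06, and 18 of the 27 stayed under 8 in every group. Among the 16 called members, Foxc2 alone did so.

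Some Fox genes lie next to each other on a chromosome, and their differences can be set side by side. On chromosome 13, Foxq1, Foxf2 and Foxc1 follow each other with no other protein-coding gene between them in RefSeq. The difference of DE at day 4 from MES was 4.81 for Foxq1, 0.03 (95% interval -0.31 to 0.37) for Foxf2 and -0.74 for Foxc1. On chromosome 8, Foxf1, Foxc2 and Foxl1 lie in this order with only Mthfsd between the first of them and Foxc2. There the same difference was -5.91 for Foxf1, -1.15 for Foxc2 and -0.03 (95% interval -0.33 to 0.27) for Foxl1. Foxf1 and Foxc2 were thus both called lower in DE and both had their highest mean in MES, by unequal amounts, and Foxl1 was not called. The group means of Foxf2, Foxc1, Foxc2 and Foxl1 all lay below the lowest array median (7.42), where differences may be compressed. On chromosome 4, the adjacent genes Foxd2 and Foxe3 differed by -0.05 and 0.08, and neither was called.

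**Figure D5:**
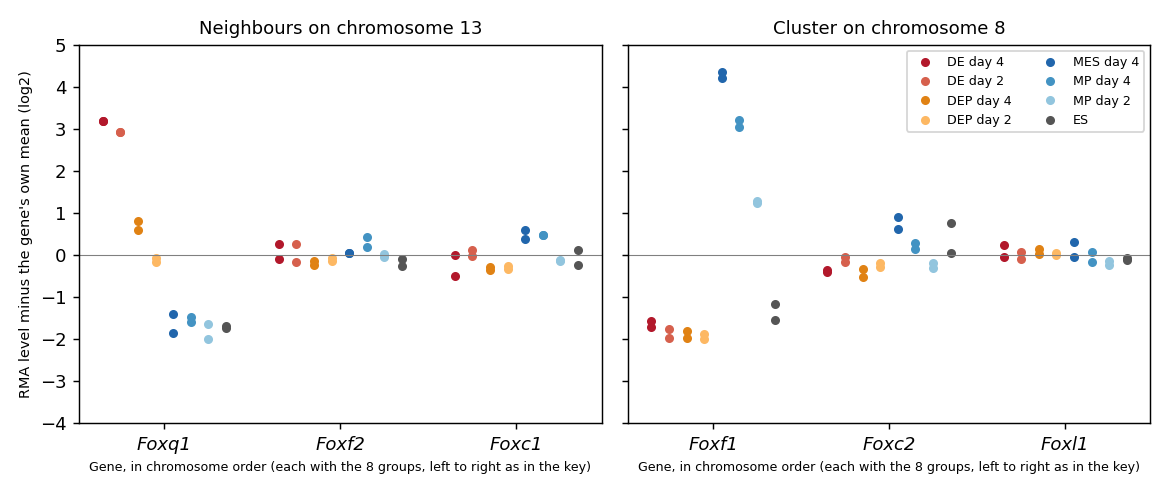
Points give the RMA level on each array minus the gene's own mean over the 16 arrays (log2), for 3 neighbouring Fox genes on chromosome 13 (left) and 3 on chromosome 8 (right), with the 8 groups side by side in each gene. The DE day 4 points lie far above those of MES for Foxq1 (a difference of 4.81) and far below them for Foxf1 (-5.91), the same difference is smaller for Foxc2 (-1.15) and Foxc1 (-0.74), and Foxf2 and Foxl1 stay near 0.

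Genes known to act with or downstream of the family were read as lists. The lists were chosen with earlier results of these data known, so that their shares are descriptions and no independent test. Cer1 also stands among the definitive endoderm markers given above, and Hand1, Gata4, Kdr and Tbx6 among the mesoderm markers. Of 13 tested genes of the Nodal and FOXH1 response, 7 (53.8%, against 4.26% of all genes) were called higher in DE at day 4 than in MES, among them Cer1 (6.82), an inhibitor of Nodal, Lefty1 (4.41), Lefty2 (3.86), Gsc (3.15) and Nodal itself (2.02), and 2 (15.4%, against 3.61%) were lower, the early streak gene Mixl1 (-1.23) and the Nodal co-receptor Tdgf1 (-1.77). The median of this list was 1.92, against 0.02 for all genes, and its mean level was 11.27 on both DE day 4 arrays and 9.57 to 9.65 in MES. Lefty1 (1.54), Lefty2 (1.53), Gsc (1.04), Lhx1 (1.63), Otx2, Cer1 (5.04) and Tdgf1 (1.46) were the 7 called higher in DEP than in MP at day 4 (53.8%, against 1.77%). Foxh1 itself was not called in either of these comparisons.

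Of 13 FOXA target and foregut or liver genes, only Apoa1 (4.26), an apolipoprotein, and Hnf4a (3.86), a nuclear receptor of endoderm, were called higher in DE at day 4 than in MES (15.4%, against 4.26% of all genes), with a list median of 0.17. Apoa1 and Hnf4a were also called higher in DE than in DEP at day 4 (15.4%, against 3.03%), by 3.29 and 3.01, and Shh, a signal of foregut endoderm, was not (-0.25, adjusted p = 0.278). Apoa1 also stands among the visceral endoderm markers given above.

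Of 12 Hedgehog and splanchnic mesoderm genes set beside Foxf1, Gli2 (-1.55) and Gli3 (-3.06), which carry the Hedgehog signal to DNA, and Bmp4 (-5.18) and Hand1 (-4.24) were called lower in DE at day 4 than in MES (33.3%, against 3.61% of all genes). Hhip (2.16), which binds and holds back Hedgehog ligands, was called higher (8.33%, against 4.26%), and the list median was -0.22. In DE compared with DEP at day 4, Ptch1, Gli2 and Gli3 were called lower (25%, against 3.33%) and Hhip and Gata4 higher (16.7%, against 3.03%). In DEP compared with MP at day 4, Bmp4 and Hand1 were called lower (16.7%, against 1.78%), and Gli2 and Gli3 were not called. Foxf1, in contrast, was called between DEP and MP and not between DE and DEP. Of 14 genes of paraxial mesoderm and vessels set beside the FOXC members, 7 (50%, against 3.61%) were called lower in DE at day 4 than in MES, among them Kdr (-4.39), Etv2 (-3.43), Tbx6 (-1.93) and Hey2 (-1.60), and 0 were called higher, with a list median of -0.56. In DE compared with DEP at day 4, limma called 0 of these 14, against 3.03% of all genes higher and 3.33% lower. Of the 14, 4 had an unadjusted p below 0.05.

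Of 16 FOXO targets, Irs2 (-1.481), which passes on the insulin signal, was the only one called in DE at day 4 compared with MES (6.25%, against 3.61% of all genes called lower), and the list median was -0.13. In DE compared with DEP at day 4, Bcl6 (1.34) and Txnip (1.08) were called higher (12.5%, against 3.03%) and Irs2 (-1.08) and Trib1 lower (12.5%, against 3.33%). Of 13 FOXM1 and G2 or M phase genes, limma called 0 in each of the 13 comparisons. In DE at day 4 compared with MES, 4.26% of all genes were called higher and 3.61% lower. There 9 of these 13 genes had an unadjusted p below 0.05, and their median difference was -0.38. Their mean level was 10.71 to 10.73 on the DE day 4 arrays, 10.77 to 10.78 in DE at day 2 and 10.94 to 11.14 on the arrays of the other groups.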

How the data were processed

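Expression was measured on 16 Mouse Gene ST 1.0 arrays of Affymetrix. The authors normalized all arrays together by RMA with oligo 1.48.0 and deposited log2 values for 35556 probe sets, so that background correction and probe summarization are already in these values. Quantile normalization gives every array the same distribution, which hides changes of total RNA, and differences of low genes are compressed. Groups were taken from the sample labels, and the names DE, DEP, MES and MP from the study.

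As in the study's methods, limma 3.58.1 (R 4.3.3) was run on the 32000 probe sets with the highest mean, in a model of 8 group means. Benjamini–Hochberg adjustment covered the 32000 probe sets within a comparison, not the 13 comparisons, and the p-values measure the spread between 2 replicates pooled over groups. Changes with the day were interaction contrasts of the same model. The script was tested on simulated data. Gene symbols came from the platform annotation, and all 43 were unchanged through the Entrez number in the RefSeq table. Array values were printed for the sorting gene Foxa2, for members called in DE compared with MES, in DEP compared with MP or in MES compared with MP, for members called against ES, and for Foxo1, Foxo3 and Foxm1. A few further members were named after their values were seen. The members and gene lists were chosen with earlier results of these data known, and T itself was not analysed here. Alternatives were 16000 or all probe sets, the adjusted p alone, a trend with robust estimation, the mean over probe sets, a replicate block and each array left out.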

Additional observations from a re-analysis of the deposited data

Results flagged for a closer look

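Foxf1 differed in its contrast between the 2 days. DEP minus MP was -5.02 at day 4 and -3.19 at day 2 on the log2 scale, and the change of -1.83 ± 0.19 (SE, n = 2 arrays in each of the 4 groups) was called in limma (adjusted p = 5.46e-04). The DEP arrays had 6.53 and 6.37 at day 4 and 6.35 and 6.45 at day 2, against 11.55 and 11.38 at day 4 and 9.61 and 9.56 at day 2 in MP. In the second probe set of Foxf1 the group means were 7.22 at day 4 and 7.20 at day 2 in DEP, against 10.23 at day 4 and 8.44 at day 2 in MP. Groups of 2 arrays are too small for a search for single outlying arrays.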

How the results depend on the processing

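All differences of the called members kept their direction under every alternative. All kept their call with 16000 probe sets (62 values). The same held with all probe sets, trend with robust estimation and the replicate block (67 values each). The adjusted p alone only drops the threshold on size, so that all 67 values keep their call by construction, which tests nothing. With the mean over probe sets of a gene, all 67 values also kept their call. Among the called members, only Foxf1 has a second probe set, so that this setting tests the levels of Foxf1 alone. Without an array of the groups compared, 17 of 272 values were no longer called, in the results on Foxa1, Foxa2, Foxa3, Foxh1, Foxi3, Foxp1 and Foxr2 given above.

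With the adjusted p alone, the numbers of called members were 18 for DE at day 4 against MES, 6 and 13 for DEP against MP at days 2 and 4, 12 and 14 for DE against DEP at days 2 and 4, and 6 for MES against MP. They were 3 for DE, 3 for DEP and 5 for MP at day 4 against day 2, and 14 for DEP at day 2, 10 for MP at day 2, 19 for DE at day 4 and 16 for MES against ES. For the change of DEP minus MP with the day, 2 were called. The share of all genes at the adjusted p alone was not computed, so that these counts cannot be set against other genes.

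Without an array of the groups compared, 9 to 10 members were called for DE at day 4 against MES, 3 to 4 and 8 to 8 for DEP against MP at days 2 and 4, 7 to 8 and 9 to 9 for DE against DEP at days 2 and 4, and 2 to 2 for MES against MP. For day 4 against day 2 the count was 0 to 1 in DE (0 without either day 4 array), 0 to 0 in DEP and 2 to 2 in MP. Against ES it was 3 to 5 for DEP at day 2 (5 without ES replicate 2), 2 to 4 for MP at day 2 (4 without ES replicate 1), 9 to 11 for DE at day 4 and 7 to 8 for MES. For the change with the day it was 1 to 3 in DEP minus MP (3 without DEP day 4 replicate 1, 2 without MP day 2 replicate 2 or MP day 4 replicate 2) and 0 to 1 in DE minus DEP (1 without DE day 2 replicate 2). Leaving out an array of another group changes the pooled spread: the count for DEP at day 4 against day 2 was then 1 without either DE day 4 array, that for the change in DEP minus MP was 2 without either DE day 4 array, and that for the change in DE minus DEP was 1 without either MP day 2 array.

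The labels give a replicate number only and do not say whether equal numbers share a culture. The correlation of replicate differences between 2 groups was -0.20 to 0.25 and exceeded 0.1 in 8 of 28 pairs, which does not settle this. With the replicate block, 10 members were called for DE at day 4 against MES, 3 and 8 for DEP against MP and 7 and 9 for DE against DEP at days 2 and 4, and these counts equal those without it. With 2 arrays in each group, and no detection p for a probe set, members with low levels may have differences too compressed to be called.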
